A study of Mus musculus with 16 samples.

Results

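Spen-/- embryonic stem cells (ESCs) were compared before differentiation (day 0) and at day 3 of monolayer differentiation, without doxycycline at either time. The comparison rests on 4 of the 16 RNA-seq libraries of the series, 2 biological replicates at each day, taken by their titles. SPEN is a large RNA-binding protein whose SPOC domain recruits corepressor complexes with HDAC3, and Xist RNA needs it to silence genes on the X chromosome. The cells are female F1 129/Sv:Cast/EiJ ESCs carrying a doxycycline-responsive promoter at the endogenous Xist gene of the Cast X chromosome, an allele that the Wt cells carry too. In Spen-/- cells the whole Spen open reading frame was deleted with CRISPR/Cas9, with a puromycin cassette used for targeting. ESCs grew with LIF and serum on male irradiated C57BL/6 feeder fibroblasts, which were depleted by plating before differentiation in medium with serum and ascorbic acid but no LIF. The 4 Wt libraries of the same days, also without doxycycline, serve as the comparison. Whether replicates came from separate clones was not stated for the RNA-seq. The p-values of the fits therefore measure a spread between libraries, estimated from all 16 of the series.

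ESCs in LIF and serum hold a naive pluripotent state kept by a network of transcription factors such as KLF2, ESRRB, TFCP2L1 and TBX3 downstream of LIF and STAT3. Without LIF the network is shut down, FGF and ERK signalling takes the cells to a formative, epiblast-like state marked by Fgf5, and Nodal and Wnt signals then lead to primitive streak fates. In female cells the same window brings the choice of an X chromosome and the rise of Xist. SPEN acts both in that silencing and, with RBPJ, as a repressor of Notch target genes.

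Depth was 7783920 to 10075825 reads on genes in the 4 Spen-/- libraries and 7571566 to 14822867 over all 16, and levels are given as reads scaled to a common library size (CPM, with TMM factors). Over 14913 genes the log2 counts of the replicates correlated at 0.903 at day 0 and 0.95 at day 3 in Spen-/- cells, and at 0.904 and 0.972 in Wt cells. The targeted gene was checked first. Spen (ENSMUSG00000040761, chromosome 4, 141467890 to 141538597 of GRCm38) had 1.28 and 5.45 CPM at day 0 and 0.315 and 1.61 by day 3 in Spen-/- cells, against 43.5 and 23.5 at day 0 and 21.9 and 16.2 by day 3 in Wt cells. The groups of the genotypes did not overlap, and the remaining reads in Spen-/- cells were not traced to an exon.

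Of 18150 genes tested, 104 were called higher and 119 lower at day 3 in Spen-/- cells (edgeR quasi-likelihood test, adjusted p under 0.05), which is 1.23% of the genes tested, 0.573% higher and 0.656% lower. In Wt cells 78 were called higher and 173 lower (1.38% in all, 0.43% higher and 0.953% lower). Of the 223 called in Spen-/- cells, 215 were protein coding. In all 223 the day 0 and day 3 libraries of Spen-/- cells did not overlap, so such separation adds nothing to a call. The counts rest on a spread estimated from all 16 libraries. The 4 libraries fitted alone gave 0 calls in edgeR, with 2597 genes at an unadjusted p under 0.05 against 2386 (13.1%) in the fit of 16 (2426 in Wt cells, 13.4%), and DESeq2 on the 16 libraries gave 1063, all 223 among them.

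Most of these changes also appeared with SPEN present. Of the 104 genes called higher in Spen-/- cells 46 were called higher in Wt cells (44.2% of the former and 59.0% of the latter), and of the 119 called lower 86 were called lower (72.3% and 49.7%), with 0 called in opposite directions. The 2 comparisons share no library, but both use the spread of each gene estimated from all 16 libraries, so their calls are not independent. The sign was the same in Wt cells for 219 of the 223 genes. Of the 91 genes called in Spen-/- cells and not in Wt cells, 58 higher and 33 lower, 63 had an unadjusted p under 0.05 in Wt cells and 87 had the same sign. The test of the difference itself, the day 3 change in Spen-/- cells minus that in Wt cells, called 0 of 18150 genes (0% called, smallest adjusted p = 0.999977), with 622 genes (3.43%) at an unadjusted p under 0.05 and 2 genes called by DESeq2 (Krt8 and the fatty acid elongase gene Elovl7, whose Spen-/- libraries had no read at day 0), so a change called in 1 genotype is not shown to be particular to it.

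**Figure D1:**
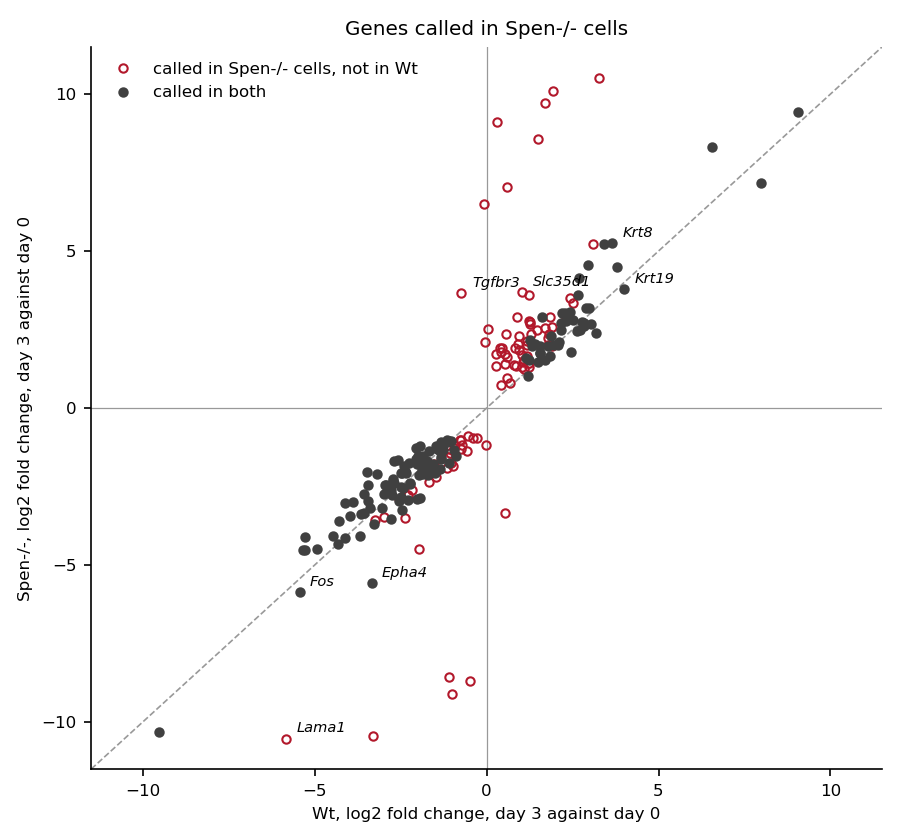
Log2 fold change from day 0 to day 3 in Spen-/- cells (vertical axis) against that in Wt cells (horizontal axis) for the 223 genes called in Spen-/- cells. Filled points mark the 132 genes called in both genotypes, open points the 91 others, and the dashed line marks equal change. Nearly all points lie in the 2 quadrants of equal sign, and 14 genes have a group at 0 reads in Spen-/- cells, whose fitted fold is no estimate of size.

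The calls depended on single libraries. Without day 0 replicate 1 there were 263 calls, of which 127 were among the 223, and without day 0 replicate 2, day 3 replicate 1 or day 3 replicate 2 there were 73, 53 and 52. A core of 37 genes, 22 higher and 15 lower, was called in all 4 of these fits, and 34 of the 37 were also called in Wt cells. Among the 22 were the keratin genes Krt8, Krt18 and Krt19, the claudin gene Cldn6 and the tropomyosin gene Tpm1, and among the 15 were Zfp42, Esrrb, Tcl1, Fos and Egr1. A lone library left in a group was assumed to vary like the other groups.

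Most genes of the naive pluripotency network fell in the absence of SPEN. Of 22 listed genes, all tested, 14 were called lower and 0 higher, and the median log2 fold change was -2.65 against 0.00 over all genes tested. In Wt cells 13 were called lower and the median was -2.63. Only Nanog had a fitted change above 0. This list and those below were written with earlier results of these data known, so they are no independent evidence. Beside this and each list below, the share of all genes tested that were called was 0.573% higher and 0.656% lower. In Wt cells it was 0.43% and 0.953%. The summed level of the 22 genes went from 9449.8 and 11272 CPM to 2569 and 2440.2 in Spen-/- cells and from 8379 and 12220.1 to 1877 and 2049 in Wt cells.

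Zfp42 (Rex1; ENSMUSG00000051176, chromosome 8, 43295063 to 43306980), a zinc finger gene used as a marker of the naive state and a target of the X-linked ubiquitin ligase RLIM, went from 638 and 666 CPM to 130.3 and 107 (log2 -2.46 ± 0.21, adjusted p = 2.58e-04). The day 0 and day 3 libraries lay far apart. In Wt cells it went from 718 and 879 to 63.4 and 83.6 (log2 -3.44, adjusted p = 4.58e-05), and the difference of 0.98 between the genotypes had an unadjusted p = 0.00457 that did not pass adjustment. Day 3 levels in both Spen-/- libraries lay above those in both Wt libraries. Levels of the genotypes within a day were not tested, here or below, and the share of all genes separated in this way is not given.

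Esrrb, an orphan nuclear receptor that sustains self-renewal, fell from 265 and 182 CPM to 16.5 and 30.4 (log2 -3.25, adjusted p = 0.0012). Tfcp2l1, a factor that acts downstream of LIF and STAT3, fell from 267 and 219 CPM to 30.7 and 16.8 (log2 -3.35, adjusted p = 0.00474). Tbx3, a T-box factor, fell from 292 and 249 CPM to 24 and 20.2 (log2 -3.61, adjusted p = 0.00482). The 2 day 3 libraries of each gene lay below both day 0 libraries, and libraries were separate for every called gene. Klf2 fell from 85.3 and 84.3 CPM to 7.68 and 6.65 (log2 -3.56, adjusted p = 0.0406) and Klf5 from 392 and 505 CPM to 99.8 and 105 (log2 -2.13, adjusted p = 0.00934), both Krüppel-like factors of the naive circuit. Klf4, which STAT3 activates directly, did not pass the test, at 104 and 42.2 CPM at day 0 and 0.421 and 6.93 at day 3 (adjusted p = 0.0702). Nr0b1, an X-linked gene for the nuclear receptor DAX1, fell from 217 and 122 CPM to 28.3 and 15.8 (log2 -2.95, adjusted p = 0.0492).

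Zfp42 and Esrrb kept the call with each Spen-/- library left out in turn. Tfcp2l1, Tbx3, Klf2, Klf5 and Nr0b1 lost the call without 1 or another of the 4 libraries (highest adjusted p per gene 0.0776 to 0.344). The values of Klf2 within each day differed little, but its genewise spread over the 16 libraries was wide, with an SE of 0.73 on the log2 scale.

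Other markers of the naive state fell as well. Tcl1, an AKT coactivator, went from 609.6 and 697 CPM to 35.9 and 42.2 (log2 -4.07, adjusted p = 2.92e-04). Tdh, the mitochondrial threonine dehydrogenase of mouse ESCs, went from 335 and 302 CPM to 97.7 and 95 (log2 -1.72, adjusted p = 0.00824). Dppa5a, which encodes an RNA-binding protein abundant in ESCs, went from 4486 and 5970.5 CPM to 1336 and 1169.5 (log2 -2.06, adjusted p = 0.00798). These 3 genes lost most of their level, while their day 3 levels remained well above 0. Fgf4, the ligand that starts ERK signalling in ESCs, went from 199.7 and 342 CPM to 44.2 and 34.6 (log2 -2.78, adjusted p = 0.045). Dppa3, which protects maternal methylation marks, went from 159.5 and 164 CPM to 41.5 and 52.2 (log2 -1.79, adjusted p = 0.015), Zfp57, which maintains imprints, from 449.8 and 875 CPM to 112 and 131 (log2 -2.45, adjusted p = 0.0097), and Tet2, which oxidises methylcytosine, from 65.9 and 79.3 CPM to 9.88 and 15.3 (log2 -2.53, adjusted p = 0.0193). Tcl1 kept the call with each Spen-/- library left out in turn. Tdh, Dppa5a, Fgf4, Dppa3, Zfp57 and Tet2 lost the call without day 0 replicate 2, day 3 replicate 1 or day 3 replicate 2 (highest adjusted p per gene 0.106 to 0.304).

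**Figure D2:**
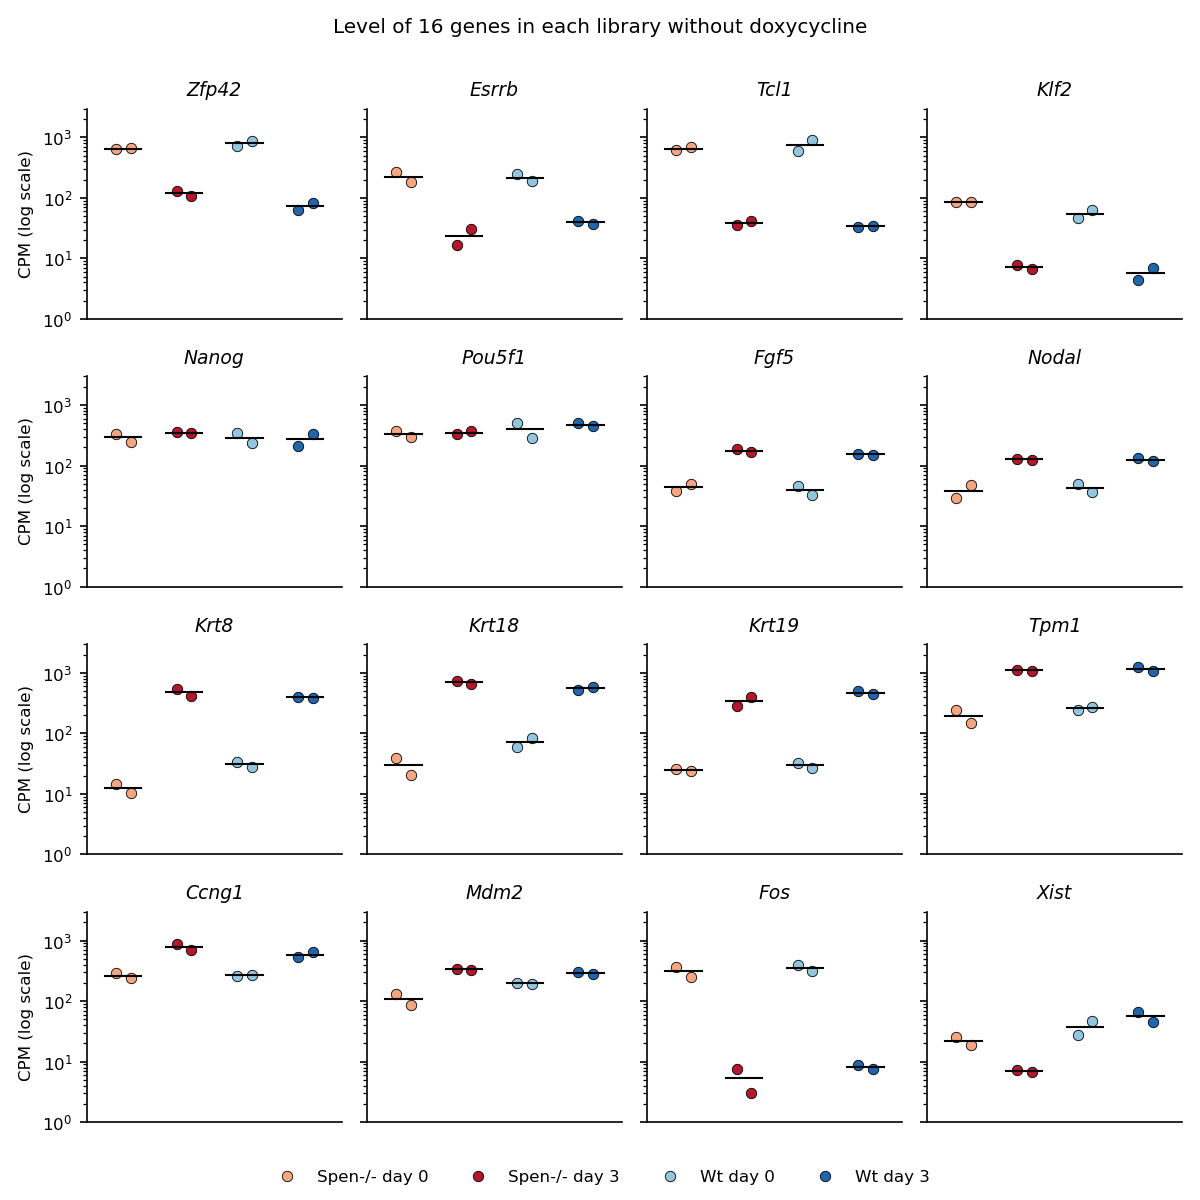
Level in CPM (log axis) of 16 genes in the 8 libraries without doxycycline, with 1 point per library and a bar at the mean of the 2 replicates. The naive genes Zfp42, Esrrb, Tcl1 and Klf2 lie lower at day 3 and the keratin genes higher in both genotypes, Nanog and Pou5f1 have no called change, and Xist lies at 7.36 and 6.65 CPM in the Spen-/- libraries at day 3, below all other libraries.

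The promoter of Zfp42 is shown because this gene's fall had a small adjusted p and was kept in every fit with 1 library left out, and because it holds the octamer ATGCAAAT that POU factors such as OCT4 bind, beside that of Gadd45g, another fallen gene with the octamer. Each sequence is the 250 bases before the RefSeq start (GRCm38.p6), read 5′ to 3′ on the strand of the gene, with matches to the searched motifs in capitals. Zfp42 lies on the minus strand (chr8:43307010-43307259) and Gadd45g on the plus strand (chr13:51846425-51846674), where the capitals mark the octamer as ATTTGCAT and, in Gadd45g, an E-box CACGTG before it.
Zfp42: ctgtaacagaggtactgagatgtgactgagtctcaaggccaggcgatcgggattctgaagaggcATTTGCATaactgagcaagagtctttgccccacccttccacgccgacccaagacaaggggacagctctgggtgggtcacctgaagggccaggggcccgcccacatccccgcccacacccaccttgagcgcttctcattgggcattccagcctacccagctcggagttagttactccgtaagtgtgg
Gadd45g: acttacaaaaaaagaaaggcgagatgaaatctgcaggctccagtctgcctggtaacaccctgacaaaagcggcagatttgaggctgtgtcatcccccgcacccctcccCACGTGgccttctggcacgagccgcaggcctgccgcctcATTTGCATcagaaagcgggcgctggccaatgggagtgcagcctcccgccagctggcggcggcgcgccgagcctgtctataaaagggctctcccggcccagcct
On either strand, the octamer was in 4 of 87 genes called lower with a window (4.6%; Chchd10, Gadd45g, Spp1 and Zfp42), in 3 of 82 called higher (3.66%) and in 1.63% of the 12155 genes tested that had a window. The E-box CACGTG was in 16 of 87 called lower (18.4%), 3 of 82 called higher (3.66%) and 9.59% of genes tested. The T-box letters AGGTGTGA were in 1 of 87 and 0 of 82 called lower and higher against 0.921% of genes tested. These are letter matches and not binding sites, and no test was made of them.

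In the core pluripotency list, genes shared by naive and primed cells, 1 of 11 genes was called lower and 0 higher (median -0.90; Wt 2 lower, median -0.68). Pou5f1 (OCT4) had 367 and 297 CPM at day 0 and 329 and 372 at day 3, and the groups overlapped. Nanog had 335 and 249.9 CPM at day 0 and 356 and 348 by day 3 (adjusted p = 0.778), without a fall in either library. Sox2 had 161 and 107 CPM at day 0 and 22.7 and 27.8 by day 3 and just missed the threshold (log2 -2.41 ± 0.53, adjusted p = 0.0521). Rif1, a telomere and replication timing factor, was the called gene, from 539 and 591 CPM to 227 and 207 (log2 -1.38, adjusted p = 0.0283).

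Of 15 formative and primed epiblast genes 1 was called higher and 0 lower (median 0.33; Wt 1 higher, median 0.85). Fgf5, the classic marker of that state, rose from 37.8 and 49.5 CPM to 186 and 165 (log2 2.01, adjusted p = 0.00481), nearly the same as in Wt cells (log2 1.96, from 46 and 33.1 to 158 and 149 CPM). Otx2, which directs the shift of OCT4 to formative enhancers, had 138 and 119.6 CPM at day 0 and 91.4 and 107 at day 3 (adjusted p = 0.867), against 55.4 and 107 at day 0 and 147 and 155 by day 3 in Wt cells. Pou3f1 had 4.67 and 7.09 CPM at day 0 and 10.2 and 9.4 by day 3 (adjusted p = 0.7). The methyltransferase genes of this stage did not pass the test either. Dnmt3b had 128 and 105 CPM at day 0 and 218 and 259 by day 3 (log2 1.03 ± 0.29, adjusted p = 0.128), with both day 3 libraries above day 0. In the list of 15 DNA methylation genes 2 were called lower and 0 higher (median -0.16; Wt also 2 lower), and these were the dioxygenase genes Tet2, described above, and Tet1, from 347 and 309 CPM to 87.1 and 83.6 (log2 -1.94, adjusted p = 0.00243).

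Rif1, Fgf5, Tet1 and Tet2 lost the call without 1 or another of the 4 libraries (highest adjusted p per gene 0.0503 to 0.239). None of 22 methylation-sensitive germline genes was called in either genotype (median 0.65; Wt 0.70), and none of 15 two-cell-like genes tested of 23 listed (median 0.13; Wt 0.06).

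Early lineage genes mostly did not pass the test. Of 23 primitive streak and mesoderm genes tested, 0 were called in either direction (median 1.51), against 1 higher in Wt cells (median 1.58). T (brachyury), the defining T-box factor of the streak, had 2.1 and 0.954 CPM at day 0 and 17.7 and 25.8 at day 3 (log2 3.81 ± 0.84, adjusted p = 0.0586). Wnt8a, a Wnt ligand of the streak, had 1.75 and 0 CPM at day 0 and 38.3 and 37.6 by day 3 (adjusted p = 0.0877). Fgf8 had 6.54 and 6.27 CPM at day 0 and 103 and 128 by day 3 (log2 4.17 ± 1.12, adjusted p = 0.112), against 4.78 and 1.59 at day 0 and 169 and 119.8 by day 3 in Wt cells, where it was called (adjusted p = 0.0485). For each of these 3 genes both day 3 libraries lay above both day 0 libraries. Over all genes tested the libraries of the days did not overlap, in either direction, for 46.4% in Spen-/- and 51.6% in Wt cells. Of the 23 genes, 8 had a group at 0 reads. Eomes had 12.3 and 0 CPM at day 0 and 43 and 37.4 by day 3 (adjusted p = 0.491), with 1 day 0 library at 0.

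Of 20 endoderm genes tested 0 were called higher and 1 lower (median -0.65; Wt none called, median 0.28). Lama1, a laminin chain of basement membranes, had 24.9 and 12.3 CPM at day 0 and no read in either library at day 3, which is at least 127-fold lower against a floor of 3 reads over the group (adjusted p = 0.0226). Gata6, Gata4, Sox17 and Foxa2, the defining factors of primitive and definitive endoderm, each stayed under 5 CPM in all 4 Spen-/- libraries. Of 11 neuroectoderm genes tested 1 was called lower and 0 higher (median 0.77, or 0.00 with genes that had a group at 0 set to their bound; Wt also 1 lower, median -0.80). It was Ncam1, a cell adhesion molecule, from 87.9 and 169 CPM to 24.1 and 14.1 (log2 -2.75, adjusted p = 0.00865). Of 39 Hox genes 11 passed the filter on low counts, 7 of them with a group at 0 reads, and 0 were called in either genotype (median 0.00; Wt -1.16). Lama1 and Ncam1 lost the call without day 0 replicate 2, day 3 replicate 1 or day 3 replicate 2 (highest adjusted p per gene 0.124 to 0.19).

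Of 13 trophoblast genes 2 were called higher and 1 lower (median 1.07; Wt 2 higher and 0 lower, median 2.00). Those called higher were Krt8 and Krt18, which belong to any simple epithelium. Tfap2c, a factor of trophoblast and of naive ESCs, fell from 109.9 and 102 CPM to 26.5 and 36.7 (log2 -1.74, adjusted p = 0.0391). Cdx2, the defining trophectoderm factor, had no read at day 0 and 7.05 and 1.52 CPM at day 3 (adjusted p = 0.158), and Gata3 had 8.87 and 7.63 CPM at day 0 and 13.5 and 16.3 by day 3 (adjusted p = 0.666). Tfap2c lost the call without any 1 of the 4 libraries (highest adjusted p 0.314).

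Genes of simple epithelium were among the rises with the smallest adjusted p. Krt8 (ENSMUSG00000049382, chromosome 15, 101996698 to 102004482) and Krt18 encode the paired keratins of simple epithelia and lie next to each other on chromosome 15. Krt8 rose from 14.7 and 10.2 CPM to 547 and 414 (log2 5.26 ± 0.27, adjusted p = 3.69e-06) and Krt18 from 38.6 and 20.7 CPM to 744 and 663 (log2 4.56 ± 0.31, adjusted p = 5.90e-05). Krt19, a further keratin of this type, rose from 25.3 and 24.3 CPM to 287 and 398 (log2 3.79, adjusted p = 0.00183). The day 3 libraries of the 3 genes were above every day 0 library by an order of magnitude. Krt8-ps, a pseudogene of Krt8, was called too, so reads that the copies share may be divided between them.

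In Wt cells Krt8 went from 34 and 28.3 to 398 and 385 CPM (log2 3.65) and Krt18 from 58.6 and 85 to 529 and 583 (log2 2.95). The change in Spen-/- cells was larger by 1.61 for Krt8 (unadjusted p = 3.12e-04) and by 1.61 for Krt18 (unadjusted p = 0.00137), and neither passed adjustment over the 18150 genes. Without the filter on low counts both differences passed in edgeR (adjusted p = 0.0289 for Krt8 and 0.00421 for Krt18). DESeq2 called this difference for Krt8 (DESeq2 adjusted p = 0.015). The day 0 levels of both genes were lower in the Spen-/- libraries than in the Wt libraries, and the day 3 levels were higher, which was not tested. For Krt19 the change was 3.99 in Wt cells (unadjusted p of the difference = 0.732).

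The upstream sequences of this keratin pair are shown because these genes had the smallest adjusted p among protein-coding genes and lie side by side. Krt8 is on the minus strand (chr15:102004343-102004592) and Krt18 on the plus strand (chr15:102027966-102028215), 250 bases each as above. Capitals mark the GATA letters AGATAAG and the RBPJ letters GTGGGAA, both in Krt8, and Krt18 held none of the 5 motifs searched.
Krt8: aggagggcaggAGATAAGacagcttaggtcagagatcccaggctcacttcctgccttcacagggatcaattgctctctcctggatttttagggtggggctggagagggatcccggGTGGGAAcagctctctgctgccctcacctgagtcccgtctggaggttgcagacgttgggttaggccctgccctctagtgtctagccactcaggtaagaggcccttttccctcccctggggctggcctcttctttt
Krt18: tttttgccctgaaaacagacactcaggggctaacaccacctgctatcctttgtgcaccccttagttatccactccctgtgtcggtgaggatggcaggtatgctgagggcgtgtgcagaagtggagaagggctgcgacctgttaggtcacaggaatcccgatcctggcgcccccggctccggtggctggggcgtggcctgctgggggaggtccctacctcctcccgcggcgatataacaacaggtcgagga
The RBPJ letters were in 4 of 82 genes called higher (4.88%), 2 of 87 called lower (2.3%) and 6.47% of genes tested, and the GATA letters in 3 of 82 (3.66%), 1 of 87 (1.15%) and 2.3%.

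A list of 26 simple epithelium genes was written after values had been seen and so is no independent evidence. Of all 18150 genes tested 8981 had a change above 0. In Wt cells 9 of the list were called higher (median 1.95). In Spen-/- cells 11 were called higher and 0 lower, with all 26 above 0 (median 2.43). Besides the keratins these were the tight junction claudins Cldn6, from 33.1 and 41.6 CPM to 217 and 270.1 (log2 2.70, adjusted p = 0.0012), and Cldn7, from 21.6 and 7.22 CPM to 88.5 and 104 (log2 2.73, adjusted p = 0.0323), and the polarity protein gene Crb3, from 25.2 and 12.3 CPM to 72.1 and 75.1 (log2 1.97, adjusted p = 0.0352). Sfn (14-3-3 sigma) rose from 34.8 and 43.9 CPM to 369.7 and 289 (log2 3.07, adjusted p = 2.69e-04). Gprc5c, an orphan receptor, rose from 6.65 and 3.54 CPM to 82 and 97.7 (log2 4.13, adjusted p = 7.71e-04). Epcam and Cdh1 (E-cadherin), which ESCs already express, were higher in both day 3 libraries without passing the test, Epcam at 152 and 152 CPM at day 0 and 302 and 304 by day 3 (adjusted p = 0.101) and Cdh1 at 171 and 136 CPM at day 0 and 278 and 309 by day 3 (adjusted p = 0.268).

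In the list of 18 genes of adhesion and epithelial-mesenchymal transition, 3 were called higher and 2 lower (median 0.22; Wt 3 higher and 1 lower, median 0.81). The 3 were Cldn6, Cldn7 and Crb3, and the 2 were mesenchymal genes, Fn1 (fibronectin), from 313 and 332 CPM to 83.4 and 71 (log2 -2.06, adjusted p = 0.00234), and Vim (vimentin), from 195 and 244 CPM to 49.7 and 59.9 (adjusted p = 0.0403). Krt8, Krt18, Krt19, Cldn6, Sfn and Gprc5c kept the call with each Spen-/- library left out in turn. Cldn7, Crb3, Fn1 and Vim lost the call without 1 or another of the 4 libraries (highest adjusted p per gene 0.0539 to 0.301).

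Some genes of the actin cytoskeleton rose too. In a list of 23, also written after values had been seen, 7 were called higher and 0 lower (median 0.97; Wt 6 higher, median 1.21). Tpm1, a tropomyosin, rose from 243 and 151 CPM to 1116 and 1092 (log2 2.49, adjusted p = 0.00115), and Cnn1, the smooth muscle calponin, from 18.4 and 10.2 CPM to 174 and 172 (log2 3.59, adjusted p = 0.00658). Zyx (zyxin), a focal adhesion protein, rose from 16.8 and 6.68 CPM to 94.4 and 97.3 (log2 3.02, adjusted p = 0.00957), and Csrp1, which binds it, from 23 and 14.6 CPM to 159.6 and 185 (log2 3.20, adjusted p = 0.0097). The day 3 values of each gene were close together and, with the separation that every called gene had, above both day 0 values. Tagln (SM22), an actin-binding protein, rose from 3.27 and 3.0 CPM to 25.7 and 23.1 (log2 2.95, adjusted p = 0.0216). Tpm1 kept the call with each Spen-/- library left out in turn. Cnn1, Zyx, Csrp1 and Tagln lost the call without 1 or another of the 4 libraries (highest adjusted p per gene 0.0925 to 0.153).

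Of 21 p53 target and apoptosis genes 4 were called higher and 0 lower (median 0.91), against 2 higher in Wt cells (median 0.60). A change above 0 was seen in 20 of the 21, against 8981 of all 18150 genes tested. Ccng1 (cyclin G1) rose from 287 and 238 CPM to 879 and 692 (log2 1.58, adjusted p = 0.00332). Mdm2, the ubiquitin ligase that degrades p53, rose from 129 and 87.2 CPM to 346 and 325 (log2 1.63, adjusted p = 0.0205). Phlda3, an inhibitor of AKT, rose from 51.8 and 39 CPM to 296 and 283 (log2 2.67, adjusted p = 0.0131), and Perp, a desmosomal and apoptotic membrane protein that also belongs to epithelia, from 16.7 and 5.18 CPM to 124 and 124 (log2 3.49, adjusted p = 0.0242). Both day 3 libraries were above both day 0 libraries for each, a separation that every called gene had. Mdm2 went from 202 and 189 to 309 and 284 CPM in Wt cells (log2 0.60, adjusted p = 0.399), and the difference between genotypes had an unadjusted p = 0.0257. Cdkn1a (p21) had 268 and 359 CPM at day 0 and 627 and 499.7 by day 3 (adjusted p = 0.0877), and Trp53 itself had 549 and 457 CPM at day 0 and 477 and 562 by day 3 (adjusted p = 0.993). Ccng1, Mdm2, Phlda3 and Perp lost the call without day 0 replicate 2, day 3 replicate 1 or day 3 replicate 2 (highest adjusted p per gene 0.0542 to 0.188).

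Immediate early genes are induced by serum and ERK within minutes. Fos, a subunit of AP-1, fell from 373 and 247 CPM to 7.57 and 3.04 (log2 -5.87, adjusted p = 6.10e-04), and Egr1, a zinc finger factor, from 204 and 144 CPM to 12.5 and 3.13 (log2 -4.48, adjusted p = 0.00558). In a list of 17 tested, written after values had been seen, 4 were called lower and 1 higher (median -0.55; Wt 4 lower and 1 higher, median -1.01). Fosb and the phosphatase gene Dusp1 were the other 2 lower, and Btg2, an antiproliferative gene, was the higher one. In the list of 20 FGF and ERK genes 3 were called lower (Fos, Egr1 and Fgf4) and 1 higher (Fgf5), with a median of -0.42 (Wt 4 lower and 2 higher, median -0.19). The ERK feedback genes Dusp6 and Spry2 did not pass, Dusp6 at 32.9 and 53.8 CPM at day 0 and 152 and 100.3 by day 3 (adjusted p = 0.0799) and Spry2 at 704 and 1601 CPM at day 0 and 350.3 and 219 by day 3 (adjusted p = 0.141). Fos and Egr1 kept the call with each Spen-/- library left out in turn.

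In the LIF and STAT3 list 1 of 13 genes was called lower and 0 higher (median -0.61; Wt 2 lower, median -0.90). Gadd45g, a growth arrest gene that cytokines induce, fell from 131 and 91.6 CPM to 13 and 14.6 (log2 -3.01, adjusted p = 0.00474). Lifr, the receptor, had 53.8 and 123 CPM at day 0 and 20.7 and 4.37 at day 3 and missed the threshold (adjusted p = 0.0577). Of 21 Nodal and BMP genes 1 was called higher and 0 lower (median -0.53; Wt 1 higher, median -0.64). Nodal, the ligand that patterns the epiblast, rose from 29.4 and 47.7 CPM to 131 and 126 (log2 1.74, adjusted p = 0.018), while its targets Lefty1, at 179.9 and 142 CPM at day 0 and 117 and 97.1 by day 3 (adjusted p = 0.491), and Lefty2, at 686 and 637 CPM at day 0 and 365 and 432 by day 3 (adjusted p = 0.23), did not pass. Of 19 Wnt genes tested 0 were called in either genotype (median 0.10; Wt -0.12). Gadd45g and Nodal lost the call without day 0 replicate 1, day 3 replicate 1 or day 3 replicate 2 (highest adjusted p per gene 0.0855 to 0.129).

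Of 22 glycolysis genes 1 was called lower and 0 higher (median 0.07; Wt none, median 0.47). It was Pfkp, the platelet type of phosphofructokinase, from 453 and 406 CPM to 135 and 159 (log2 -1.55, adjusted p = 0.0146). Of 28 imprinted genes tested 2 were called higher and 1 lower (median 0.06; Wt 1 higher and 2 lower, median 0.34). The paternally expressed genes Peg3 and Sgce rose, Peg3 from 284 and 237 CPM to 486 and 520.2 (log2 0.95, adjusted p = 0.0283) and Sgce from 16.6 and 12.1 CPM to 87.6 and 89.1 (log2 2.62, adjusted p = 0.0497). Both had reads from both alleles, with pooled 129 shares of 0.455 and then 0.499 for Peg3 and 0.39 and then 0.40 for Sgce. The maternally expressed Phlda2 fell from 82.6 and 144 CPM to 21.3 and 17.3 (log2 -2.55, adjusted p = 0.0432). Of 10 mitochondrially encoded genes tested 0 were called in either genotype (median -0.64; Wt -0.41). Pfkp, Peg3, Sgce and Phlda2 lost the call without 1 or another of the 4 libraries (highest adjusted p per gene 0.19 to 0.304).

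**Figure D3:**
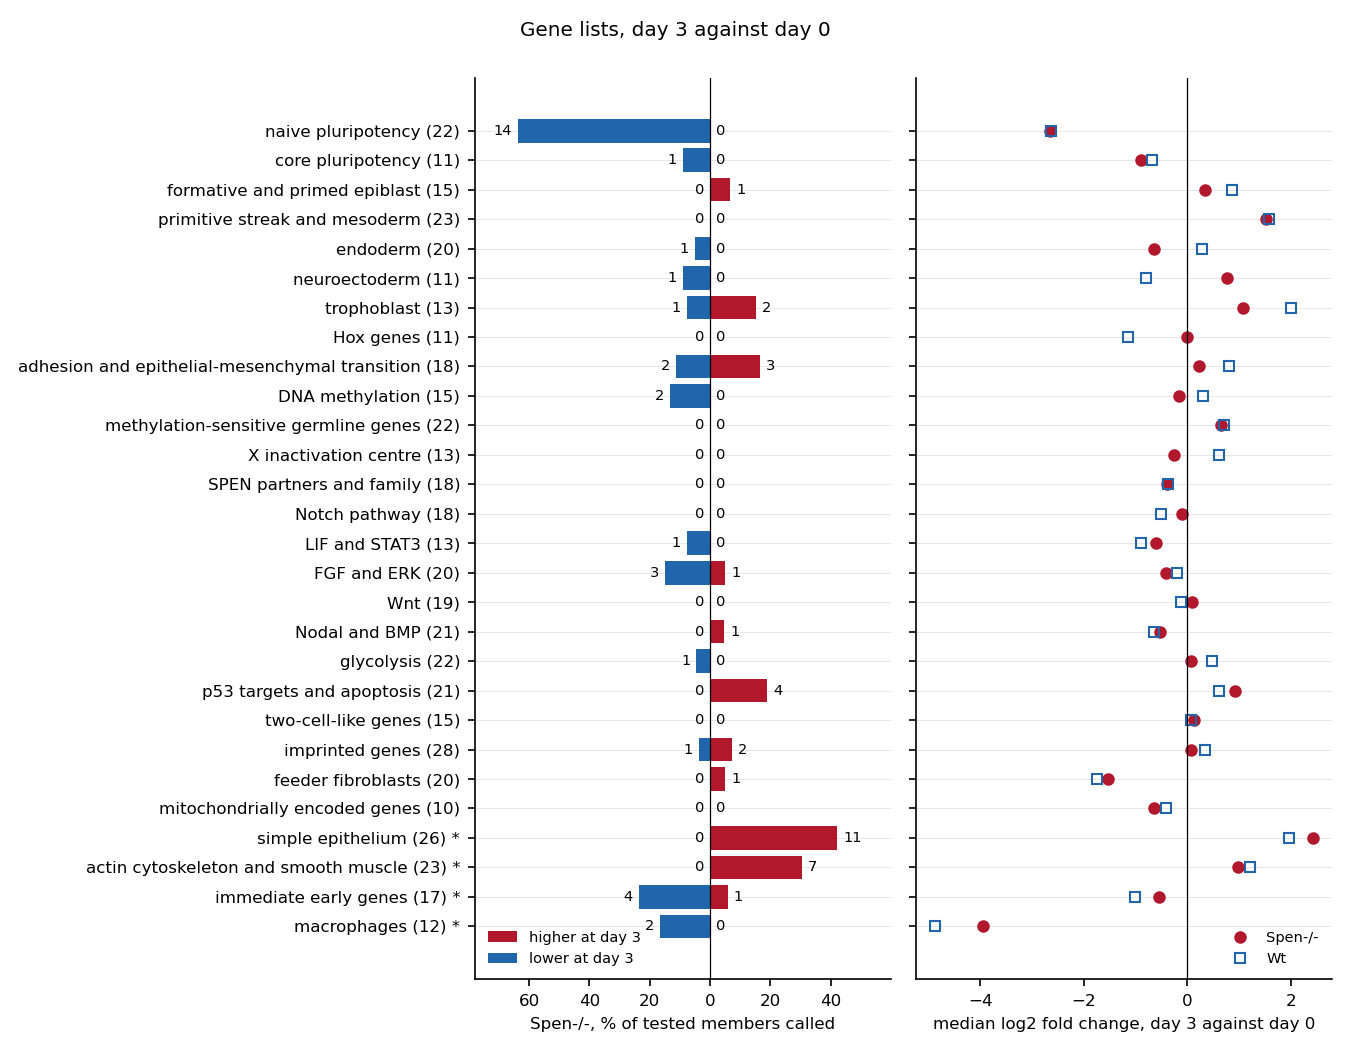
Gene lists in Spen-/- cells, with the number of members tested in brackets. The left panel gives the percentage of tested members called higher (red) or lower (blue) at day 3, with counts at the bars, and the right panel the median log2 fold change in Spen-/- (filled) and Wt cells (open). Asterisks mark the 4 lists written after values had been seen, and the other lists were written with earlier results of these data known. Of 22 naive pluripotency genes 14 were called lower in Spen-/- cells.

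Of 18 genes of SPEN partners and family 0 were called in Spen-/- cells (median -0.39; Wt 1 lower, median -0.37). Ncor1, a scaffold of the HDAC3 complex, had 118 and 147 CPM at day 0 and 58 and 61.2 at day 3 (log2 -1.15 ± 0.29, adjusted p = 0.0926), and the same pattern in Wt cells, 144 and 142 at day 0 and 56.8 and 59.8 by day 3. Hdac3 had 87.9 and 44.1 CPM at day 0 and 98.3 and 114 by day 3 (adjusted p = 0.391). Rbm15, a SPOC-domain relative of SPEN, had 258 and 408 CPM at day 0 and 178 and 133 by day 3 (adjusted p = 0.281), and Rbm15b 36.5 and 20.8 CPM at day 0 and 25.1 and 26.3 by day 3 (adjusted p = 0.978). None of these 4 genes passed the test.

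Of 18 Notch pathway genes tested 0 were called in Spen-/- cells (median -0.11; Wt 1 higher, median -0.51). Hes1, a direct target, had 87.1 and 84.3 CPM at day 0 and 108 and 81.2 at day 3, where the groups overlapped, and 41.6 and 41.2 at day 0 and 98.2 and 124 by day 3 in Wt cells (unadjusted p of the difference = 0.0397). At day 0 both Spen-/- libraries were above both Wt libraries, which was not tested. Notch3, a receptor, had 5.37 and 14.6 CPM at day 0 and 35.3 and 55.1 by day 3 (adjusted p = 0.122), and was called in Wt cells at 9.82 and 6.74 at day 0 and 64 and 61.6 by day 3 (adjusted p = 0.0434).

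At the X inactivation centre, the region that holds Xist and its regulators, 0 of 13 genes tested were called in either genotype (median -0.26; Wt 0.60). Xist (ENSMUSG00000086503, chromosome X, 103460366 to 103483254), the RNA that coats the inactive X, had 25.6 and 18.5 CPM at day 0 and 7.36 and 6.65 by day 3 in Spen-/- cells (log2 -1.65 ± 0.51, adjusted p = 0.168). Both day 3 libraries were below both day 0 libraries. In Wt cells it had 27.5 and 46.3 at day 0 and 67 and 44.7 by day 3, and the difference of -2.26 in the change had an unadjusted p = 0.00717 that did not pass adjustment. Without the filter on low counts this difference passed (adjusted p = 0.00307). Tsix, its antisense repressor, had 10.7 and 13.5 CPM at day 0 and 14.9 and 7.31 by day 3 (adjusted p = 0.993), with overlapping groups. The genes overlap on opposite strands and the strand setting of the counting was not stated, so their reads may not be fully apart.

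Ftx, a long noncoding activator of Xist, had 5.14 and 4.63 CPM at day 0 and 33.8 and 28.2 by day 3 (adjusted p = 0.383). It was higher in both day 3 libraries of either genotype, with a wide SE of 1.23 on the log2 scale. Rlim, the X-linked activator of Xist, had 1033 and 1078 CPM at day 0 and 872 and 864 by day 3 (adjusted p = 0.525). Allele-specific reads of Xist were few, with 10 of 36 and 17 of 29 from 129 at day 0 and 16 of 16 and 7 of 12 at day 3, so its allelic share could not be ordered at this depth.

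Silencing of the Cast X chromosome would raise the share of reads from 129, and silencing of the 129 X would lower it. The paper describes the 129 X as the one inactivated in this line without doxycycline. A lower 129 share is therefore the direction of silencing in these libraries. In Spen-/- libraries the median 129 share of 260 X-linked genes, each with over 20 reads that tell the alleles apart in every condition, was 0.536 and 0.525 before and 0.50 and 0.519 after differentiation. Over 7180 autosomal genes it was 0.515 and 0.531 before and 0.50 and 0.505 after, so both kinds of gene had lower medians at day 3. The mean of the X-linked medians was 0.531 ± 0.00793 at day 0 and 0.509 ± 0.0131 at day 3 (SD, n = 2). The day 3 minus day 0 value of -0.0215 had p = 0.33 in the exact permutation test, two-sided, the smallest that 2 against 2 can give, and it was -0.0123 without day 3 replicate 1. After subtraction of each library's autosomal median the difference was -0.00106, within the spread of the replicates (exact permutation p = 1).

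In Wt cells the X-linked median went from 0.489 and 0.50 to 0.438 and 0.453, a difference of -0.0488 in the means and of -0.0322 after subtraction of the autosomal medians (exact permutation p = 0.33 for each). Gene by gene with reads pooled, the 129 share was higher at day 3 for 108 and lower for 145 of the 260 genes in Spen-/- cells, and higher for 87 and lower for 169 in Wt cells. The allelic edgeR test called 0 of 282 X-linked genes in Spen-/- cells, where 9 had an unadjusted p under 0.05 (5 with a higher and 4 with a lower 129 share), which is 3.19% of them against 5.29% of all 7861 genes, and 2 of the 7861 were called (0.0254%). DESeq2 also called 0 X-linked genes. In Wt cells 0 of 290 were called and 11 had an unadjusted p under 0.05, 3 with a higher and 8 with a lower share (3.79%, against 3.5% of all 8340 genes).

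**Figure D4:**
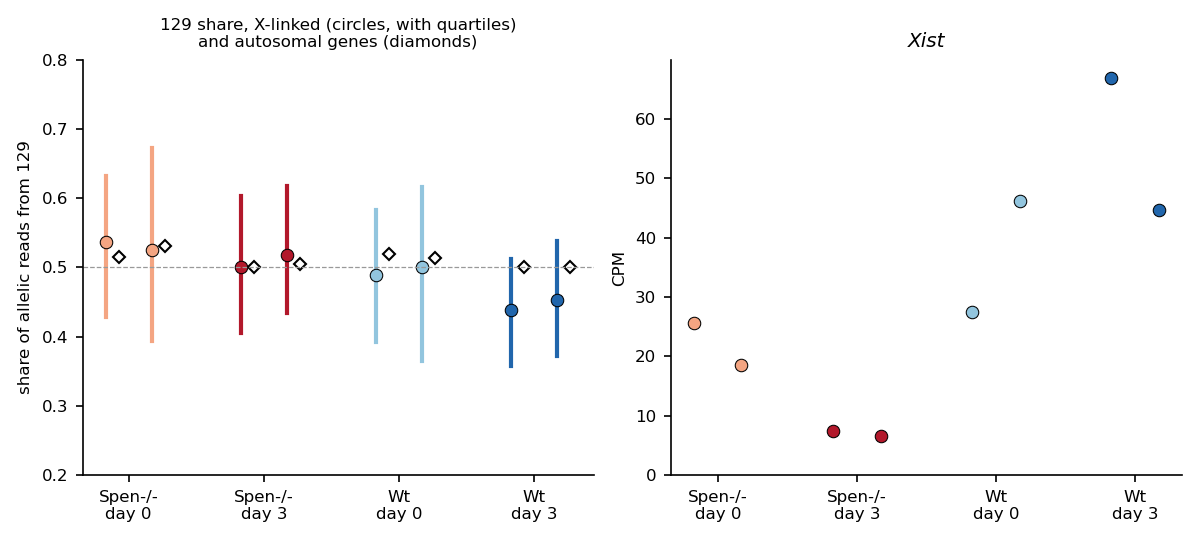
Left, share of allele-specific reads from 129 in each library without doxycycline, as the median over 260 X-linked genes (circles, lines from the lower to the upper quartile) and over 7180 autosomal genes (diamonds), with a dashed line at 0.5. Right, Xist level in CPM in the same libraries. The X-linked medians of Spen-/- cells at day 3 lie at 0.50 and 0.519, beside the autosomal medians, and those of Wt cells at 0.438 and 0.453.

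Among the X-linked genes with the most allele-specific reads, Hprt, a purine salvage enzyme gene, kept a pooled 129 share of 0.678 at day 0 and 0.67 at day 3, and Dkc1, a telomerase component, 0.409 and 0.415. Bcap31 had 0.526 and 0.524, Tceal9 0.548 and 0.50, and Alg13 0.594 and 0.614. Eif1ax had 0.369 and 0.419 and Prps1 0.442 and 0.52. Each of these 7 kept reads from both X chromosomes, and none was called in the allelic test. In Wt cells the pooled 129 share of all 7 was lower at day 3. It went from 0.712 to 0.612 for Hprt, 0.405 to 0.349 for Dkc1, 0.474 to 0.46 for Bcap31 and 0.508 to 0.412 for Tceal9. For Alg13 it went from 0.643 to 0.567, for Eif1ax from 0.43 to 0.361 and for Prps1 from 0.514 to 0.476. Utp14a had 291 of 512 and 347 of 599 reads from 129 at day 0 and 331 of 444 and 315 of 444 at day 3 (edgeR, unadjusted p = 0.00517, adjusted p = 0.72), and in Wt cells its pooled share was 0.551 and then 0.681. Rlim had 633 of 1151 and 516 of 1010 reads from 129 before differentiation, a share of 0.55 (0.521 to 0.578) in replicate 1 and 0.511 (0.48 to 0.542) in replicate 2, with 95% Wilson intervals. The day 3 reads were 519 of 1012 and 548 of 1150, with a share of 0.513 (0.482 to 0.544) in replicate 1 and 0.477 (0.448 to 0.505) in replicate 2. The intervals cover counting error only. In Wt cells the pooled 129 share of Rlim was 0.463 at day 0 and 0.39 at day 3.

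In total counts the median X-linked log2 fold change in Spen-/- cells was 0.09 over 715 genes and the autosomal median 0.00 over 17399, against -0.08 and 0.02 in Wt cells. The X-linked excess of 0.09 in Spen-/- cells was 0 without the filter on low counts, and 0.02 without day 0 replicate 1 and 0.03 without day 3 replicate 2. Of the 715 X-linked genes 12 were called (1.68%, against 1.23% of all genes tested), 6 in each direction. Pim2, a serine/threonine kinase gene, rose from 97.8 and 56.4 CPM to 413 and 601 (log2 2.72, adjusted p = 0.00394). Spin2c, of the spindlin family, rose from 4.79 and 8.99 CPM to 48.3 and 30.1 (log2 2.51, adjusted p = 0.0454), while in Wt cells its log2 fold change was 0.04. Nr0b1 and Prps1 were among the 6 lower. These X-linked genes other than Nr0b1 and Prps1 were named after their values had been seen.

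Since ESCs were grown on feeders, markers of other cells were examined. Of 20 feeder fibroblast markers 1 was called higher (Tagln, described above) and 0 lower in Spen-/- cells (median -1.54; Wt none, median -1.75). Their summed level was 299 and 291 CPM at day 0 and 245 and 241 at day 3, with 1 member at 0 reads in each day 0 library and 4 and 5 at 0 at day 3. In Wt cells it was 425 and 148 at day 0 and 245 and 268 by day 3. The sum in Spen-/- cells leans on Acta2, with 651 of 2565 and 636 of 2136 of the list's reads at day 0. At day 3 Acta2 had 1147 of 2328 and 1118 of 2535. Of the 20 markers 14 had a fitted change below 0 and 6 above 0 in Spen-/- cells. The 4 listed Y-linked genes, which female cells lack, summed to 3.62 and 18.1 CPM at day 0 and had no read at day 3 in Spen-/- cells, and to 8.52 and 15.9 at day 0 and 0.533 and 0 by day 3 in Wt cells. Of these 4 genes 2 passed the filter on low counts and 0 were called (median -5.05 with groups at 0 set to their bound; Wt 0 called). In bulk RNA fewer cells of a type and less RNA per cell cannot be told apart.

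Genes that fibroblasts express also had other allelic shares at day 0 than at day 3. Acta2, smooth muscle actin, had 150 of 150 and 143 of 143 reads from 129 at day 0 and 140 of 264 and 196 of 292 at day 3 (allelic edgeR test, adjusted p = 0.00145), and 356 of 366 and 76 of 76 at day 0 and 184 of 329 and 180 of 349 by day 3 in Wt cells. Its total level was 76 and 86.7 CPM at day 0 and 121 and 106 at day 3 and did not pass the test. Col1a1, collagen I, had 44 of 44 and 48 of 48 at day 0 and 16 of 30 and 15 of 28 by day 3 (adjusted p = 0.498). For Acta2 and Col1a1 day 0 reads were all or nearly all of the 129 type in both genotypes and day 3 reads were of both alleles. The counts separate only 129 from Cast, so reads of C57BL/6 feeders that carry the 129 base are counted as 129. These shares are therefore not shown to be those of the ESCs alone, and the part of feeder reads was not tested. The markers Col1a2 and Thy1 had both alleles at day 0 already. Col1a2 had pooled 129 reads of 35 among 53 (0.66) and then 27 among 50 (0.54; unadjusted p = 0.796), and Thy1, which was too shallow for the test, 42 among 61 (0.689) and then 6 among 18. Prrx1 had 43 of 43 at day 0 and 3 of 3 by day 3. Vim, called lower above, had 275 of 363 and 370 of 384 reads from 129 at day 0 and 84 of 129 and 107 of 141 at day 3. Fn1 had pooled 129 shares of 0.616 and 0.637 and Zfp42 of 0.512 and 0.494. The part of feeder RNA in the falls of Vim and Fn1 was not tested.

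Lyz2, a lysozyme of macrophages, fell from 204 and 296 CPM to 11.7 and 10.2 (log2 -4.52, adjusted p = 0.0218) and its 1051 allele-specific reads at day 0 and 60 at day 3 were all from 129. Of all 18150 genes tested 8637 had a change below 0. In a list of 12 macrophage genes, written after values had been seen, 2 were called lower (Lyz2 and Aoah) and 0 higher. All 12 were below 0 (median -3.94, or -2.77 with genes that had a group at 0 set to their bound). In Wt cells 2 of the 12 were called lower (median -4.87). Their summed level was 342 and 469 CPM at day 0 and 43.7 and 40.4 at day 3, and 482 and 378 at day 0 and 40.9 and 43.7 by day 3 in Wt cells. The defining genes Ptprc (CD45), Csf1r and Adgre1 were each under 8 CPM in all 4 Spen-/- libraries. Of the 98 autosomal genes called lower with more than 20 allele-specific reads at day 0, 8 had over 0.9 of them from 129 (8.16%, against 4.4% of all 8235 such genes tested), among them Lyz2, Aoah, Lgals1 and Lmna, and the median share of the 98 was 0.543. Lyz2 lost the call without day 0 replicate 2, day 3 replicate 1 or day 3 replicate 2 (highest adjusted p 0.21).

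The other gene called in the allelic test was Pttg1 (securin), with 174 of 1632 and 205 of 1859 reads from 129 at day 0, or 0.107 and 0.11 of them. At day 3 these shares were 0.342 (0.323 to 0.361) for replicate 1 and 0.314 (0.294 to 0.335) for replicate 2, on 2342 and 1953 reads with 95% Wilson intervals in brackets (edgeR, adjusted p = 0.00601). It was also called in Wt cells, with 114 of 1110 and 179 of 1838 at day 0 and 450 of 1453 and 580 of 1772 by day 3 (adjusted p = 0.00445), where 2 of 8340 genes were called (0.024%). The allelic difference between genotypes was called for 0 of 7452 genes (0%), with 200 (2.68%) at an unadjusted p under 0.05. Among imprinted genes with enough reads Kcnq1ot1 had pooled 129 shares of 0.716 at day 0 and 0.39 at day 3 (unadjusted p = 0.0147, adjusted p = 0.794), Meg3 0.224 and 0.293, Peg3 0.455 and 0.499, and Snrpn 0.543 and 0.476, and none was called.

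**Figure D5:**
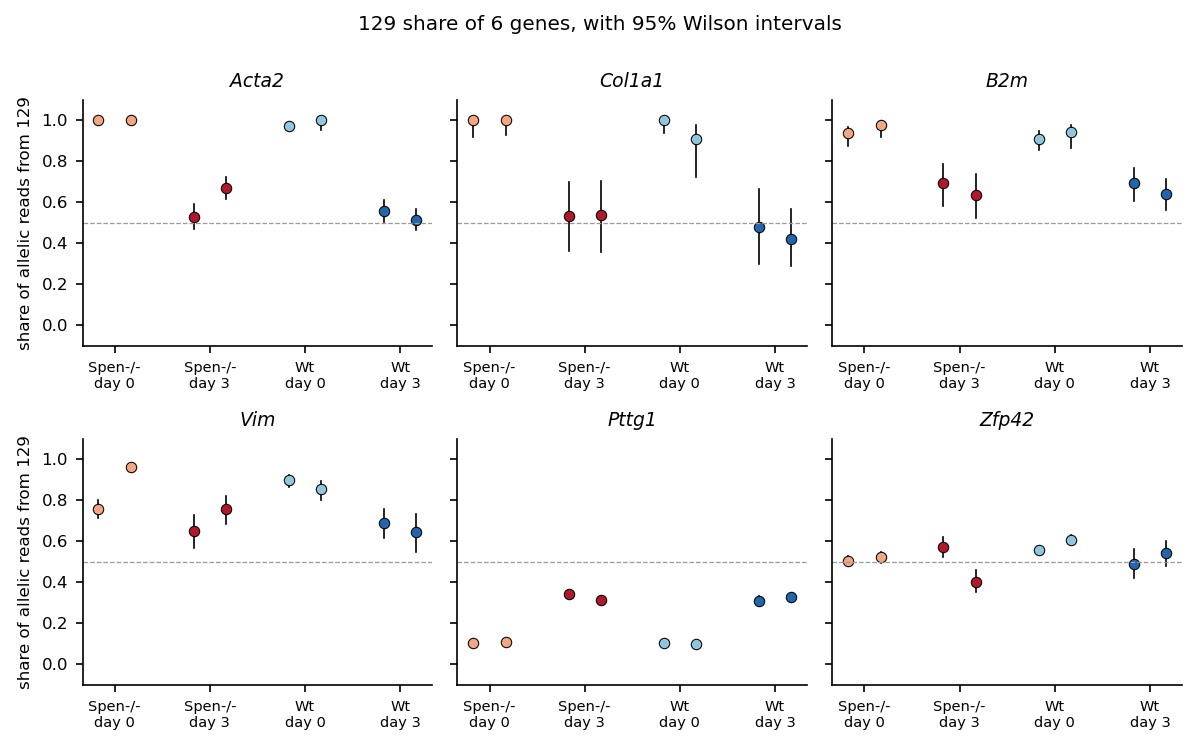
Share of allele-specific reads from 129 (vertical axis) in each of the 8 libraries for 6 genes, with 95% Wilson intervals that cover counting error only and a dashed line at 0.5. Acta2, Col1a1 and B2m lie above 0.9 at day 0 and between 0.422 and 0.693 at day 3 in both genotypes, Pttg1 lies low at day 0, and Zfp42 lies between 0.403 and 0.608.

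Other genes among the 12 largest rises and 12 largest falls had varied roles. Trim54, a muscle-type TRIM protein gene, rose from 1.75 and 0.136 CPM to 34.3 and 38.5 (log2 5.22, adjusted p = 0.00745) and also rose in Wt cells (adjusted p = 0.0392). Slc35d1, a nucleotide sugar transporter, rose from 1.75 and 2.73 CPM to 40.7 and 17 (log2 3.68, adjusted p = 0.0456), Lman2l, a lectin of the secretory path, from 3.15 and 0.409 CPM to 19 and 24.5 (log2 3.59, adjusted p = 0.0383), and the noncoding Gm32585 from 2.92 and 3.54 CPM to 36.1 and 29.8 (log2 3.35, adjusted p = 0.0274). Tgfbr3 (betaglycan), a coreceptor of TGF-beta, rose from 0.934 and 2.18 CPM to 27.8 and 11.6 (log2 3.66, adjusted p = 0.0447). Slc35d1, Lman2l, Gm32585 and Tgfbr3 were not called in Wt cells, and Tgfbr3 had 7.99 and 23.1 CPM at day 0 and 6.93 and 11.8 at day 3 there (log2 -0.73; unadjusted p of the difference = 0.00101, not past adjustment). At day 0 Tgfbr3 was lower in both Spen-/- libraries than in both Wt libraries, which was not tested.

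Epha4, an ephrin receptor, fell from 54 and 65.7 CPM to 1.05 and 1.42 (log2 -5.58, adjusted p = 4.54e-04), against a log2 fold change of -3.34 in Wt cells (unadjusted p of the difference = 0.00467, not past adjustment). Spp1 (osteopontin) fell from 1573 and 2501 CPM to 91.4 and 111 (log2 -4.33, adjusted p = 2.58e-04) and Hesx1, a homeobox gene of the early epiblast, from 38.5 and 85.7 CPM to 2.94 and 4.08 (log2 -4.14, adjusted p = 0.00798). Sept1, a septin, fell from 179.7 and 214 CPM to 13.2 and 9.97 (log2 -4.08, adjusted p = 3.40e-04), Ly6g6e from 56.1 and 61.7 CPM to 4.63 and 4.46 (log2 -3.69, adjusted p = 0.00166) and Aqp3, a water and glycerol channel, from 53.8 and 52.1 CPM to 5.26 and 3.89 (log2 -3.53, adjusted p = 0.00908). All 6 were also called lower in Wt cells. Trim54, Epha4, Spp1, Sept1 and Ly6g6e kept the call with each Spen-/- library left out in turn. Slc35d1, Lman2l, Gm32585, Tgfbr3, Hesx1 and Aqp3 lost the call without 1 or another of the 4 libraries (highest adjusted p per gene 0.131 to 0.282).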

How the data were processed

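RNA-seq libraries (Smart-seq2 on a small amount of total RNA, tagmentation, single-end reads) were analysed from the table of raw counts that the authors deposited, in which each library has a 129/Sv, a Cast/EiJ and an unassigned count per gene. The authors aligned reads with HISAT2 2.2.1 to an mm10 genome masked at strain variants, split them by allele with SNPsplit, handled them with SAMtools 1.10 and counted uniquely assigned reads with HTSeq 0.12.4 on Ensembl genes. The strand setting was not given in the sources used here. The share of reads on no gene, 31.6% to 45.4% over the 16 libraries, was left out.

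Total counts are the sum of the 3 columns. Groups were taken from the titles. All 16 libraries, 2 for each of 8 conditions, were fitted together with edgeR 4.0.16 (R 4.3.3; TMM, filterByExpr with a minimum count of 10, quasi-likelihood test), with Benjamini-Hochberg adjusted p under 0.05 as the call. Contrasts were day 3 against day 0 in Spen-/- cells, the same in Wt cells, and their difference. The ± after a log2 value is its standard error. Allelic change was tested with the 129 and Cast reads of each library as separate observations of 1 edgeR model, for genes that had over 20 reads assigned to an allele, summed over replicates, in every condition compared. Such reads were 13.0% to 13.4% of the reads in the 4 Spen-/- libraries. The code was tested on simulated data. Alternatives were DESeq2 1.42.0, its size factors, no filter, fewer libraries, a replicate block and each library left out. Gene coordinates are from GENCODE M21 (GRCm38), which gave 55240 of 55421 genes, and promoters from RefSeq (GRCm38.p6).

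Genes were named as members of the lists or as the 12 largest rises and 12 largest falls among called protein-coding or long noncoding genes with separate libraries and a mean of at least 10 CPM. In the allelic counts they were Xist, Tsix, Rlim, the 8 other X-linked genes with most reads, imprinted genes and called genes. The members and lists were chosen with earlier results of these data known. Wilson intervals and floors cover counting error only. A few genes of these lists are not reported here.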

Additional observations from a re-analysis of the deposited data

Results flagged for a closer look

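In the 2 genes below every library of one genotype lay on one side of its day 0 libraries at day 3 and every library of the other genotype on the opposite side. The share of all genes with this pattern is not given here. Libraries of the days did not overlap, in either direction, for 46.4% of genes tested in Spen-/- and 51.6% in Wt cells. Axin2, a feedback inhibitor and target of Wnt signalling, had 8.52 and 12.5 CPM at day 0 and 26.7 and 30.9 by day 3 in Spen-/- cells and 17.7 and 21.9 at day 0 and 17.1 and 12.1 by day 3 in Wt cells. The difference of the day 3 change, Spen-/- minus Wt, was 1.89 on the log2 scale (edgeR, unadjusted p = 0.0172), and it did not pass adjustment. Otx2, a homeobox factor of the formative epiblast, had 138 and 119.6 CPM at day 0 and 91.4 and 107 by day 3 in Spen-/- cells and 55.4 and 107 at day 0 and 147 and 155 by day 3 in Wt cells. Its difference was -1.27 (edgeR, unadjusted p = 0.179), also not past adjustment.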

How the results depend on the processing

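The limits first. With 2 libraries a group the number of calls followed the spread assumed. Fitted on their own 4 libraries, both the Spen-/- and the Wt comparison gave 0 higher and 0 lower. DESeq2 called 557 higher and 506 lower in Spen-/- cells, 485 and 668 in Wt cells, and 2 for the difference between genotypes. Without the filter on low counts there were 499 and 417, 420 and 529, and 6 and 7 for the difference, Xist among the 7. With 1 library left out the Spen-/- calls ranged from 28 to 177 higher and from 22 to 86 lower, and the Wt calls from 12 to 311 and from 16 to 362. The replicate numbers came from the titles, and no label says what a number shares. Over 14913 genes the replicate differences correlated at -0.0856 between the days in Spen-/- cells and at 0.0265 in Wt cells, at 0.162 between the genotypes at day 0 and -0.0306 at day 3, and at 0.00636 and -0.103 between opposite days of the genotypes, so the numbers were taken as names. With a replicate block the counts were 99 and 125 in Spen-/- cells and 93 and 217 in Wt cells. DESeq2's size factors gave 223 calls in Spen-/- cells, 219 of them among the 223. The difference of -0.0215 in the X-linked 129 share of Spen-/- cells was -0.00106 after subtraction of the autosomal median. That of -0.0488 in Wt cells was -0.0594 with summed reads and -0.0322 after subtraction. The X-linked minus autosomal median fold change of 0.09 was 0 without the filter. The causes were not tested. Single genes were followed over the settings for 124 named genes, 60 of them called in Spen-/- cells, and not for every called gene named here. Of these 60, 60 lost the call in the 4 libraries alone, 12 in the 8 libraries without doxycycline and 4 with the block. The call was lost by 1 without the filter and by 0 with DESeq2, and 0 reversed in any setting.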

Other observations

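Several genes outside the lists were among the 37 whose call held with each Spen-/- library left out, and they were chosen after their values were seen. Slc40a1 (ferroportin), the exporter of cellular iron, rose from 12.6 and 14.4 CPM to 100.0 and 101 (log2 2.90, adjusted p = 0.0011). Sema6a, a transmembrane semaphorin, rose from 7.0 and 7.36 CPM to 56 and 49 (log2 2.87, adjusted p = 0.00159), and Nefl, the light chain of neurofilaments, from 15.3 and 29.8 CPM to 156 and 159 (log2 2.80, adjusted p = 0.00539). Car4, a membrane carbonic anhydrase, rose from 66.4 and 112 CPM to 489 and 506 (log2 2.48, adjusted p = 0.00115), and Gbp2, an interferon-induced GTPase, from 13 and 20.4 CPM to 88.8 and 94.2 (log2 2.45, adjusted p = 0.00395). The ceramide synthase gene Cers2 rose from 53.9 and 57.6 CPM to 243 and 215 (log2 2.04, adjusted p = 0.00115), and the tubulin gene Tubb6 from 251 and 164 CPM to 671 and 724 (log2 1.75, adjusted p = 0.00381). Each of these 7 had both day 3 libraries above both day 0 libraries, and libraries were separate for all 223 called genes. Dennd2d had no read at day 0 and 8.73 and 12.5 CPM at day 3 in Spen-/- cells, against 7.56 and 2.38 at day 0 and 15.6 and 17 by day 3 in Wt cells.

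Among the falls of this kind, Chchd10, a mitochondrial intermembrane space protein gene, fell from 646 and 511 CPM to 197 and 199 (log2 -1.54, adjusted p = 0.00126). Ooep, which encodes a protein of the maternal subcortical complex of oocytes, fell from 326 and 299 CPM to 55.9 and 63.9 (log2 -2.38, adjusted p = 0.00126), and Ifitm1, an interferon-induced membrane protein gene, from 239 and 299 CPM to 45.4 and 42.9 (log2 -2.61, adjusted p = 0.00124). Arid5b, a DNA-binding cofactor, fell from 187 and 171 CPM to 21 and 24.9 (log2 -2.96, adjusted p = 8.49e-04), and the steroid dehydrogenase gene Hsd17b14 from 248 and 271 CPM to 56.4 and 51.8 (log2 -2.26, adjusted p = 0.00183). All 5 were lower in both day 3 libraries of Wt cells too, with log2 fold changes there of -0.90, -2.69, -2.79, -2.55 and -2.73 in the same order.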
